A study of Homo sapiens with 18 samples.

Results

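The response of parental THP1 cells to 10 ug/ml doxycycline was measured in 6 libraries, 3 from plates given the drug for 5 days and 3 from untreated plates. They were taken from a series of 18 libraries by their titles, and the genes tested were the 17555 of 60658 listed IDs that reached 1 FPKM in 3 or more of the 18. THP1, grown from human acute monocytic leukaemia, carries per the labels a heterozygous G12D change of NRAS, and the parental cells hold no inducible gene. A THP1 culture in RPMI medium with fetal bovine serum was split into plates, so a p-value reflects only how plates varied, not cultures. The spread behind it was pooled over all 18 libraries of the series, those of the clone B11 described below included. The other THP1 plates received 1 ug/ml. The remaining libraries came from B11, a single THP1 clone in which a doxycycline-inducible NRAS G12V with GFP was introduced and Cas9 with guide RNAs was directed at the NRAS locus.

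Doxycycline is a tetracycline antibiotic that binds the bacterial ribosome and, because mitochondrial ribosomes descend from bacterial ones, can also inhibit protein synthesis inside mitochondria. Cells answer mitochondrial translation stress in part through ATF4, a transcription factor that switches on genes of amino acid synthesis and transport. The drug is also the usual inducer of Tet-controlled transgenes, and a line without the transgene shows what the inducer does alone.

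Values are FPKM, fragments per kilobase of transcript scaled by library depth, as made by the submitters. Estimated depth was 13.1 to 15.5 M fragments in the untreated libraries and 11.1 to 13.8 M at 10 ug/ml, and 1 fragment on a transcript of 1 kb was worth 0.0643 to 0.0905 FPKM. Across genes, Pearson r between log2 values was 0.943 to 0.954 within the groups and 0.94 to 0.95 between them. Of 14 myelomonocytic markers 13 passed the filter, with a summed level of 4867 to 5199 FPKM untreated and 4301 to 4539 at 10 ug/ml, while MEIS1 was listed at 0. Markers of B, T and NK, erythroid, megakaryocyte, fibroblast and epithelial cells summed to at most 11.9 FPKM each in any of the 6 libraries. The sums of B cell markers (7.10 to 7.43 FPKM untreated, 5.29 to 6.19 treated) and of T and NK cell markers (2.78 to 8.29 and 0.513 to 2.50) were lower at 10 ug/ml, and their part in the results was not tested. In RNA of whole plates, fewer cells expressing a gene and less RNA per cell cannot be told apart. NRAS (chromosome 1, 114704469 to 114716894, minus strand of GRCh38) read 23.7, 23.0 and 23.2 FPKM untreated and 23.7, 24.5 and 24.6 at 10 ug/ml. The groups overlapped, and the difference was 0.056 (SE 0.07, adjusted p = 0.855) on the log2(FPKM + 1) scale.

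Far more genes fell than rose with the drug. At an adjusted p under 0.05, termed called below, 179 of 17555 genes differed between 10 and 0 ug/ml (1.02%), of which 162 fell (0.923%) and 17 rose (0.0968%). A change is the difference between group means of log2(FPKM + 1), given with its standard error (SE), a scale that understates the change of genes at low levels. The median change was -0.69 among genes that fell and 0.64 among those that rose, and 39 and 3 genes respectively changed at least 2-fold on that scale. In every called gene the 3 libraries of one group lay above all 3 of the other. The calls were made from the same libraries, so this is a description and adds no support. Among the genes that fell, 148 were protein-coding and 48 had an untreated mean of at least 100 FPKM. The largest called difference, -6.12, belonged to an unnamed processed pseudogene listed at 0 in all 3 libraries at 10 ug/ml. At an unadjusted p under 0.05, 1117 genes were lower (6.36%) and 718 higher (4.09%).

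The number of calls depended on each library. It was 109, 69 and 69 without untreated library A, B or C, and 94, 119 and 102 without library A, B or C at 10 ug/ml, and no called gene changed direction in any of these fits. The 21 genes called in every alternative that tested them were BTG2, CDKN1A, CFP, CYP51A1, ECM1, FCGR2B, FCGR2C, FDPS, FTH1, HLX, IFI6, INSIG1, LINC03040, MVD, S100A10, SCD, SQLE, TMEM45A, TUBA1A, TYMP and VIM, and every one of them fell. The plot of change against level shows these proportions, with called genes at low as well as high levels, up to the actin transcript ACTB at the far right.

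**Figure D1:**
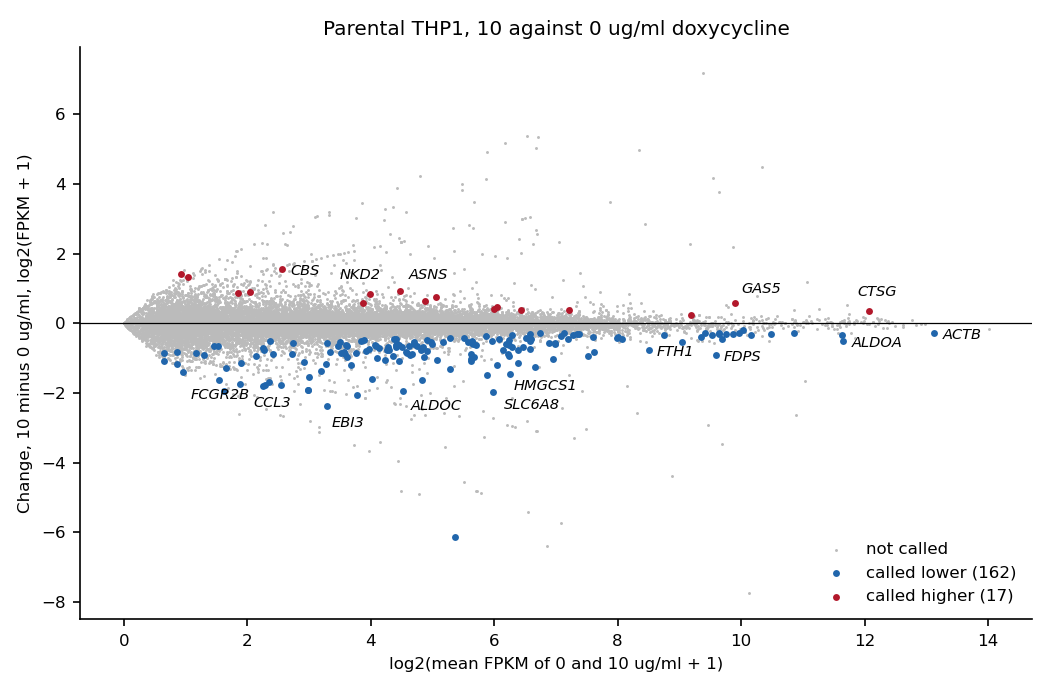
Change from 0 to 10 ug/ml doxycycline in parental THP1 (difference of mean log2(FPKM + 1), 3 libraries a group) against mean level for 17555 genes. Grey points were not called, the 162 blue points fell and the 17 red points rose at an adjusted p under 0.05 (limma), and labels name examples.

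Genes of cholesterol synthesis formed the largest called group. Cholesterol is built from acetyl-CoA through mevalonate, and most of the enzymes are switched on together by SREBP2, the product of SREBF2, when sterols in the endoplasmic reticulum run low. Of 20 enzymes tested, 12 fell and none rose, with a median change of -0.74 where the median over all genes was 0, and 18 were lower at an unadjusted p under 0.05. All 20 differences were below 0.

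At the entry of the pathway, ACAT2, a cytosolic acetyl-CoA acetyltransferase, read 86.9, 97.8 and 102 FPKM untreated and 58.7, 50.6 and 46.7 at 10 ug/ml. HMGCS1, the synthase of HMG-CoA, read 95.3, 85.8 and 91.4 untreated and 33.4, 49.2 and 35.4 treated. Every treated library lay below every untreated one in both genes, with changes of -0.87 (SE 0.12, adjusted p = 0.00238) and -1.21 (SE 0.15, adjusted p = 0.00118). In the mevalonate arm MVK, mevalonate kinase, fell by 1.08 (SE 0.19, adjusted p = 0.0136), and MVD, the decarboxylase, from 114 ± 12.7 to 51.1 ± 2.53 FPKM (mean ± SD, n = 3). PMVK, the kinase between them, was at 41.9, 39.2 and 41.9 and 38.5, 43.7 and 35.7 FPKM in overlapping groups, and its difference was -0.063 (SE 0.083, adjusted p = 0.863).

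Further along, FDPS, which makes farnesyl diphosphate, was the most abundant enzyme of the list. It read 1004, 974 and 1022 FPKM untreated, 891, 934 and 872 at 1 ug/ml and 541, 566 and 497 at 10 ug/ml. Its 10 ug/ml libraries stood apart from the other 6, and the change from 0 to 10 was -0.91 (SE 0.092, adjusted p = 0.000321). IDI1 and FDFT1, the isomerase before and the squalene synthase after FDPS, fell by 0.68 (SE 0.15) and 0.53 (SE 0.087). SQLE, the squalene epoxidase, read 106, 113 and 105 untreated and 64.8, 68.1 and 69.2 treated, a change of -0.67 (SE 0.10, adjusted p = 0.005). Among enzymes that convert lanosterol to cholesterol, CYP51A1 changed by -0.79 (SE 0.12), HSD17B7 by -1.04 (SE 0.20), EBP by -0.57 (SE 0.11) and DHCR7 by -1.02 (SE 0.18), all called. LSS and MSMO1 were not called in spite of differences of -0.94 (SE 0.24, adjusted p = 0.0932) and -0.87 (SE 0.23, adjusted p = 0.104). The plot of the enzymes in pathway order shows the 10 ug/ml difference below the 1 ug/ml difference in every enzyme, the latter ranging from -0.39 to 0.32.

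**Figure D2:**
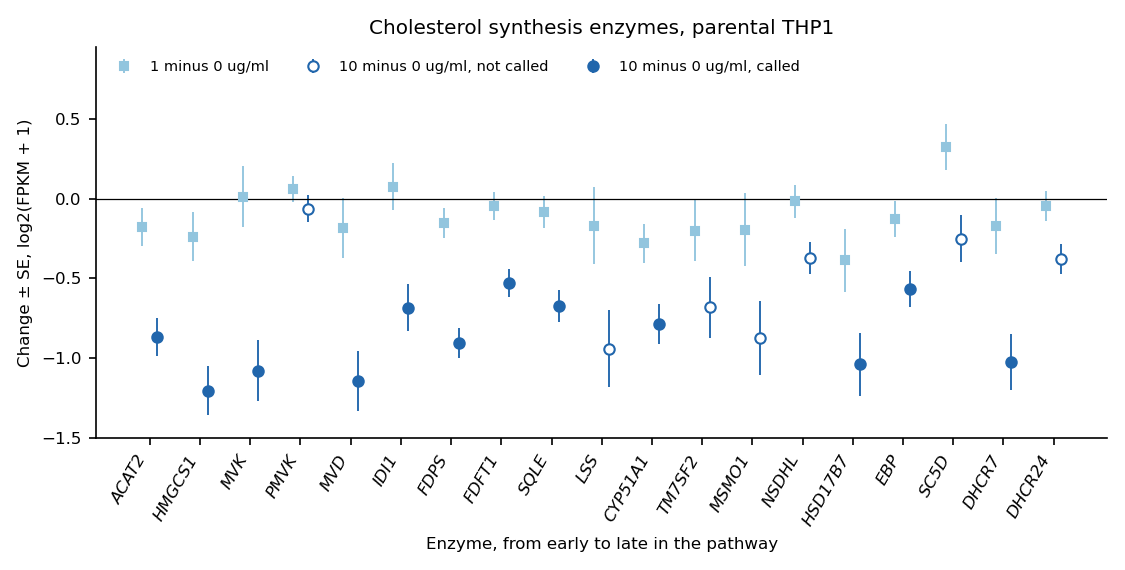
Change (± SE) of 19 of the 20 cholesterol synthesis enzymes in parental THP1 on the log2(FPKM + 1) scale, ordered from early to late in the pathway. Squares are 1 minus 0 ug/ml, none called, and circles 10 minus 0 ug/ml, filled where called, and the 12 filled circles all lie below 0.

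Of 10 tested genes of sterol uptake and SREBP control, 4 fell and none rose (median -0.33). INSIG1, which holds SREBP in the endoplasmic reticulum and is itself an SREBP target, read 155, 172 and 163 FPKM untreated and 75.3, 90.2 and 75.6 treated, with no overlap. Its change was -1.02 (SE 0.11, adjusted p = 0.000365). SREBF2 fell by 0.38 (SE 0.064, adjusted p = 0.0114), and STARD4, a cholesterol transfer protein, by 0.66 (SE 0.12, adjusted p = 0.0161). MYLIP, a ubiquitin ligase induced by the sterol sensor LXR, also fell, from 15.9 ± 1.09 to 10.8 ± 0.86 FPKM. SREBF1 was at 157 ± 12.7 and 133 ± 14.8 FPKM (adjusted p = 0.421). Of 13 tested fatty acid genes, 2 fell and none rose (median -0.19). These were SCD, the stearoyl-CoA desaturase, which read 88.2, 88.2 and 87.0 and then 52.1, 53.2 and 49.4 FPKM, and FADS2, the delta-6 desaturase, which went from 240.5 ± 7.57 to 126 ± 19.6 FPKM (change -0.93, SE 0.11, adjusted p = 0.000635). FASN, fatty acid synthase, was at 209 ± 12.3 and 164 ± 16.3 FPKM and was not called (adjusted p = 0.18).

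Several sterol and lipid calls were among the steadier ones. FDPS, SQLE, CYP51A1, MVD, INSIG1 and SCD were called under all 17 alternatives, and HMGCS1, ACAT2 and FADS2 were lost only in a fit of the 6 compared libraries alone. The count of 12 enzymes was 7 without untreated library C and 5 in that 6-library fit. The 4 uptake and control genes numbered 2 without untreated library A, B or C or without library A or C at 10 ug/ml. In the 6-library fit 1 of them, INSIG1, was called.

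Upstream sequence was examined for the 10 uptake and control genes and for 15 of the enzymes with a promoter in the RefSeq table (GRCh38.p14). The sterol regulatory element TCACNCCAC, searched on both strands in the 250 bases before the start, was found in 239 of 27305 promoters (0.875%). It was found in 1 of the 10 uptake and control genes, SREBF2, and in 0 of the 15 enzymes. The SREBF2 window, chr22:41832855-41833104 on the plus strand, is shown because that gene fell, with the match in capitals.
SREBF2: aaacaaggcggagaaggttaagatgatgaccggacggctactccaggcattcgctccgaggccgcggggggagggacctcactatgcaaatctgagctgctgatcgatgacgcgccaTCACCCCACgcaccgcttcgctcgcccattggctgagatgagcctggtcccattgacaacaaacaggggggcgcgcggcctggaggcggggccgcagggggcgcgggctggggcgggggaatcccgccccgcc

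Inflammatory genes were the next group with several falls. NF-kB is a family of transcription factors held in the cytoplasm by IkB proteins, and it induces both cytokines and its own inhibitors. Of 16 tested genes of NF-kB subunits and feedback inhibitors, 4 fell and none rose (median -0.25). NFKBIA, which encodes IkB-alpha, read 100.5, 102 and 92.9 FPKM untreated, 65.1, 56.1 and 72.4 at 1 ug/ml and 57.6, 54.7 and 41.4 at 10 ug/ml. Treated libraries at either dose lay below all untreated ones, and the change at 10 ug/ml was -0.94 (SE 0.14, adjusted p = 0.00351). TNFAIP3, the deubiquitinase A20, fell by 0.93 (SE 0.19, adjusted p = 0.0312). The subunit genes RELB and NFKB2 fell by 0.84 (SE 0.15) and 0.66 (SE 0.13), whereas RELA was at 62.0 ± 5.95 and 75.8 ± 23.2 FPKM and NFKB1 at 18.9 ± 1.75 and 18.2 ± 3.06, neither called.

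Among 22 tested cytokines and chemokines, 7 fell and none rose (median -0.47). EBI3, a subunit of IL-27 and IL-35, had the largest fall of all genes with a symbol. It read 16.8, 14.7 and 14.7 FPKM untreated and 2.69, 2.35 and 1.54 treated, a change of -2.37 (SE 0.41, adjusted p = 0.0116). TNF, the cytokine that activates NF-kB, read 16.3, 17.1 and 17 untreated, 6.93, 6.04 and 6.03 at 1 ug/ml and 6.55, 7.02 and 6.89 at 10 ug/ml. Both doses lay far below the untreated libraries and overlapped each other, and the change at 10 ug/ml was -1.19 (SE 0.21, adjusted p = 0.0132). CCL3, a monocyte-attracting chemokine, read 11.6, 10.3 and 12.2 FPKM untreated and 2.52, 3.17 and 1.39 treated (change -1.92, SE 0.29, adjusted p = 0.00526). CCL4, CCL4L2 and CXCL1 fell from untreated means of 3.43, 3.40 and 4.64 FPKM to 0.908, 0.405 and 0.739, all low levels. CCL3L3, a near-copy of CCL3 outside the list, changed by -1.54 (SE 0.29, adjusted p = 0.0179). Reads of CCL3 and CCL3L3, or of CCL4 and CCL4L2, may have been divided between the copies, so these pairs are uncertain as single genes. IL1RN, the interleukin-1 receptor antagonist, fell from 27.0 ± 3.73 to 16.5 ± 3.47 FPKM. None of 13 tested adhesion and costimulation targets of NF-kB was called in limma, although 10 were lower and 1 higher at an unadjusted p under 0.05 and ICAM1 was at 8.93 ± 0.474 and 3.20 ± 0.834 FPKM (adjusted p = 0.116).

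These counts were less steady than that of the cholesterol enzymes. The count of 4 NF-kB genes was 1, 3 and 1 without untreated library A, B or C. The 3 without library B included a gene that was not among the 4. The count was 2 without any one library at 10 ug/ml, 2 with only the 9 THP1 libraries and 0 with only the 6. The count of 7 cytokine genes was 4 and 3 without untreated library B or C, and the 4 included a gene that was not among the 7. The count was 3 without library C at 10 ug/ml, 3 with a pseudocount of 0.1 and 2 among genes with a mean of at least 5 FPKM. CCL3 and CCL4L2, which that last fit did not test, kept their calls in every alternative that tested them but the 6-library fit. NFKBIA lost its call in that fit alone.

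A kappaB core, GGGNNNTTC on either strand, occurred in 5 of 15 upstream windows of the NF-kB genes and in 9 of 20 of the cytokine genes, where 3596 of 27305 promoters held it (13.2%). Of the listed genes with a match, NFKB1, REL, NFKBIZ, IL6, LTB, CXCL2, CXCL3, CXCL5, CXCL10 and CCL20 were not called. Windows of the other 4, which fell, are shown with each match in capitals. They lie at chr14:35404750-35404999 on the minus strand, chr6:137867009-137867258 on the plus strand, chr19:4229273-4229522 on the plus strand, and chr4:73869143-73869392 on the plus strand. Where matches on opposite strands overlap, they run together as a longer stretch of capitals, as in CXCL1.
NFKBIA: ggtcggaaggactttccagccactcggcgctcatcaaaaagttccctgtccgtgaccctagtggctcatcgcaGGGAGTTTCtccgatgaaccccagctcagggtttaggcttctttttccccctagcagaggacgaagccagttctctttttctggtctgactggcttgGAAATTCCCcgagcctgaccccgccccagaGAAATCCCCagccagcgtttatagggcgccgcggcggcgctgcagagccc
TNFAIP3: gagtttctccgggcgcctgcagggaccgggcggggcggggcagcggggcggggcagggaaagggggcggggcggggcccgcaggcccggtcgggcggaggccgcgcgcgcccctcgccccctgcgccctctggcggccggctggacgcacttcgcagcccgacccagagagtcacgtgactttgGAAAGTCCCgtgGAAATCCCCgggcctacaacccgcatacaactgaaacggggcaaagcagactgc
EBI3: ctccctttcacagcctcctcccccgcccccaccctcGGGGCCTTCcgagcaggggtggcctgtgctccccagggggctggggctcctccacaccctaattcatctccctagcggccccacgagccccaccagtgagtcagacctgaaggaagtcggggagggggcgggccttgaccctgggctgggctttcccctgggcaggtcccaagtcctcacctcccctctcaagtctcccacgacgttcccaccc
CXCL1: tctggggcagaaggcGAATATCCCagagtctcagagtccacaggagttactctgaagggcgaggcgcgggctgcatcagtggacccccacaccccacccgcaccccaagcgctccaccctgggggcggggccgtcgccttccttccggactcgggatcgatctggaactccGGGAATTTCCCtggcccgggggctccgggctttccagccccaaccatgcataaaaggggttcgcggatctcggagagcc
The windows of TNF and NFKB2, which fell too, held no match to these letters.

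Immediate early genes, which are transcribed within minutes of a signal and whose mRNAs turn over fast, were lower in part. Of 23 tested, 10 fell and none rose (median -0.52), and 19 were lower at an unadjusted p under 0.05. BTG2, an antiproliferative gene and p53 target, read 22.3, 22.1 and 21.3 FPKM untreated, 15.6, 16.6 and 13.7 at 1 ug/ml and 11.4, 10.2 and 9.55 at 10 ug/ml. The 3 doses did not overlap, and 10 against 0 ug/ml gave -1.01 (SE 0.092, adjusted p = 0.000174). The AP-1 genes JUN, JUNB and JUND fell by 0.85 (SE 0.12), 0.58 (SE 0.084) and 0.68 (SE 0.13). ZFP36, which destabilises cytokine mRNAs, fell from 111 ± 9.77 to 77.7 ± 2.35 FPKM, and its relative ZFP36L1 from 9.39 ± 1.5 to 3.79 ± 0.778. The call of ZFP36L1 was lost whichever untreated or 10 ug/ml library was left out. KLF2, KLF4 and KLF6 are zinc-finger factors of myeloid and endothelial cells. KLF2 read 11.4, 12.1 and 12.8 untreated and 4.27, 5.04 and 3.12 treated (change -1.37, SE 0.17, adjusted p = 0.000816), and KLF4 and KLF6 fell by 0.84 and 0.96. EGR1 was low throughout, at 5.19, 4.92 and 5.15 untreated and 2.61, 4.05 and 3.21 treated, and its fall of 0.52 (SE 0.12) passed narrowly (adjusted p = 0.0494).

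Without untreated library A, B or C the count of 10 was 5, 6 and 6, and without library A or C at 10 ug/ml it was 5 and 6. It was 6 with the 9 THP1 libraries alone and 2 (JUND and BTG2) with only the 6 compared. The 6 without untreated library B included a gene that was not among the 10. No match to the AP-1 site TGACTCA, searched on both strands, was found in the 21 immediate early promoters in the table, where 4.16% of all promoters held one. The MAPK output and feedback list, which reads the pathway that NRAS feeds, had 0 of 15 genes called in limma and a median of -0.029, with 1 higher and 0 lower at an unadjusted p under 0.05. Its most abundant members were HMGA1, a chromatin protein, at 409.8 ± 18.6 and 413 ± 7.59 FPKM, and MYC at 138 ± 4.42 and 154 ± 6.76.

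**Figure D3:**
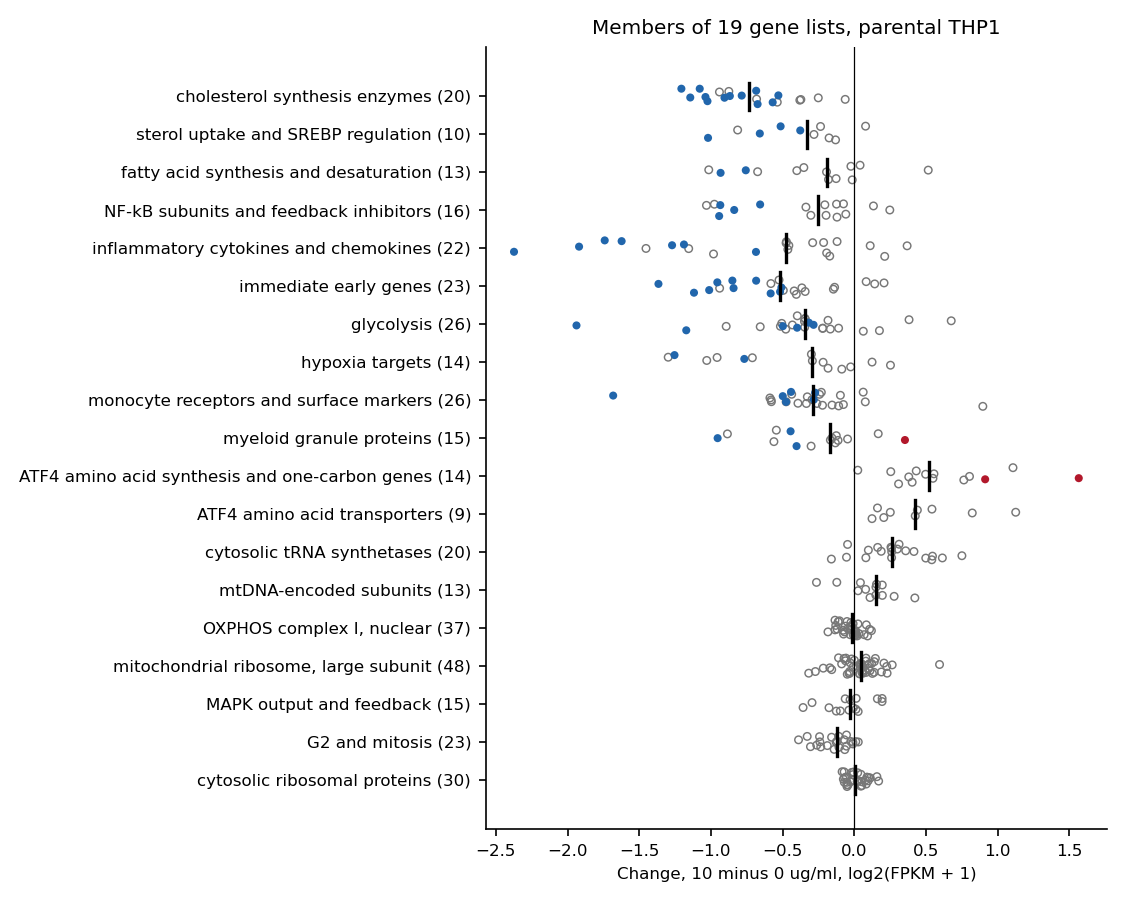
Change from 0 to 10 ug/ml in parental THP1 for the tested members of 19 gene lists (number in brackets), as differences of log2(FPKM + 1). Filled points were called, blue lower and red higher, open points were not, and the bar is the median, which lies furthest left for cholesterol synthesis (-0.74) and furthest right for ATF4 amino acid synthesis (0.52).

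Genes of sugar metabolism fell in smaller numbers. Of 26 glycolysis genes, 6 fell and none rose (median -0.34), and 16 were lower at an unadjusted p under 0.05. ALDOC, an aldolase isoform, read 34.9, 35.7 and 35.2 FPKM untreated, 30.2, 31.7 and 32.1 at 1 ug/ml and 8.16, 9.40 and 7.88 at 10 ug/ml. Only the 10 ug/ml libraries were far from the rest, and the change was -1.94 (SE 0.40, adjusted p = 0.0329). PFKFB4, which sets the level of a phosphofructokinase activator, read 13.6, 12.9 and 10.7 untreated and 5.89, 4.57 and 4.40 treated (change -1.17, SE 0.26, adjusted p = 0.0447). The abundant enzymes moved less, ALDOA by -0.50 (SE 0.09), PGK1 by -0.32 (SE 0.067) and GAPDH by -0.28 (SE 0.06), and the lactate exporter SLC16A3 by -0.40 (SE 0.081). Of 14 hypoxia targets 2 fell, NDRG1 from 141 ± 13.2 to 59.1 ± 11.8 FPKM and P4HA1, a collagen prolyl hydroxylase, from 23.2 ± 1.22 to 13.3 ± 1.24 (list median -0.30). BNIP3, a hypoxia-induced mitophagy receptor singled out after its values were seen, read 38.9, 36.6 and 38.6 and 15.4, 13.9 and 15.4 FPKM in groups that did not overlap. Its difference of -1.30 (SE 0.30, adjusted p = 0.0528) missed the threshold, and it was called in 4 of 17 alternatives.

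The glycolysis count depended on single libraries. It was 3, 0 and 0 without untreated library A, B or C, and 1, 2 and 0 without library A, B or C at 10 ug/ml. The 2 without library B at 10 ug/ml included a gene that was not among the 6. The count was 1 without the filter on low values and 1 in the 6-library fit, where ALDOC remained. Both hypoxia calls were lost without untreated library B or C, and NDRG1 was also lost without library B or C at 10 ug/ml.

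Several of the largest falls lay outside these groups. TBC1D30, a Rab GTPase-activating protein, read 19.4, 21.9 and 22.1 FPKM untreated, 15.4, 17.2 and 15.9 at 1 ug/ml and 5.03, 4.23 and 3.85 at 10 ug/ml (change -2.04, SE 0.29, adjusted p = 0.00321). SLC6A8, the creatine transporter, read 108, 111 and 82.0 and then 22.5, 31.3 and 21.0 (change -1.97, SE 0.35, adjusted p = 0.0141). In both genes no library at 10 ug/ml came near the untreated range. IGFBP3, which binds insulin-like growth factors, read 7.10, 8.25 and 8.59 untreated, 2.6, 1.5 and 1.46 at 1 ug/ml and 1.22, 2.0 and 1.80 at 10 ug/ml. Its change at 10 ug/ml was -1.76 (SE 0.20, adjusted p = 0.000556). S100A10, the partner of annexin A2 at the plasma membrane, had the smallest adjusted p of all genes. It read 74.6, 92.1 and 91.0 untreated and 31.5, 28.9 and 29.2 treated, a change of -1.49 (SE 0.12, adjusted p = 4.57e-05). TMEM45A, a membrane protein, went from 42.1 ± 5.39 to 13 ± 2.52 FPKM, and LSP1, an actin-binding protein of leukocytes, from 112 ± 5.39 to 40.3 ± 3.79. LINC03040, annotated as protein-coding despite its symbol, changed by -1.61 (SE 0.19, adjusted p = 0.000695), and HSPA7, annotated as a pseudogene of the HSP70 family, by -1.79 (SE 0.18, adjusted p = 0.000321). HSPA7 resembles its parent genes closely and is uncertain as a locus.

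Genes of monocyte identity fell in part. Of 26 tested receptors and surface markers, 6 fell and none rose (median -0.29). FCGR2B, the inhibitory Fc receptor for IgG, read 7.68, 6.57 and 6.15 FPKM untreated and 1.1, 1.92 and 1.33 treated (change -1.68, SE 0.18, adjusted p = 0.000407), and the neighbouring FCGR2C read 11.4, 9.54 and 13.7 and 1.99, 2.15 and 2.95. These 2 loci are nearly identical in sequence, so their reads may have been divided between them. CSF1R, the M-CSF receptor of the monocyte lineage, read 74.5, 71.0 and 69.7 untreated, 77.9, 75.2 and 88.7 at 1 ug/ml and 48.7, 51.6 and 51.2 at 10 ug/ml (change -0.50, SE 0.10, adjusted p = 0.032). The chemokine receptor CCR1, the lysosomal glycoprotein CD68, the integrin chain ITGB2 and the inhibitory receptor LILRB4 fell by 0.48, 0.44, 0.28 and 0.27. Of 15 granule protein genes, 3 fell and 1 rose (median -0.17). CFP, which encodes properdin, read 65.4, 67.1 and 65.5 and then 35.5, 32.6 and 32.8 (change -0.95, SE 0.14, adjusted p = 0.00321), while RNASE2 and CFD, abundant secreted proteins, fell by 0.44 and 0.40. CTSG, cathepsin G, rose from 3790 ± 235 to 4850 ± 413 FPKM. Of 16 myeloid transcription factors, 3 fell and none rose (median -0.15), among them NFE2, which fell by 0.54 (SE 0.085), and KLF4, counted above.

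The 6 receptor calls were 1 and 2 without untreated library B or C and 2 and 3 without library A or B at 10 ug/ml. FCGR2B, FCGR2C and CFP were called under all alternatives that tested them, and LILRB4 was lost in 14 of 17. Transcription factor calls numbered 1 without any one untreated library and without library A or C at 10 ug/ml, where NFE2 was kept. The CTSG call was lost in 10 of 17 alternatives, among them the removal of any one untreated library. The summed myelomonocytic markers given above were lower in all 3 treated libraries, with ITGB2 and CD68 called, and their part in these results was not tested.

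Other lists held 1 or 2 calls. FTH1, the ferritin heavy chain that stores iron, read 429, 494 and 445 FPKM untreated and 248, 278 and 273 treated (change -0.77, SE 0.089, adjusted p = 0.000635), and ALAS1, the first enzyme of haem synthesis, fell by 0.42 (SE 0.094), the 2 called of 17 iron genes (median -0.050). CDKN1A, the cell cycle inhibitor p21, read 32.4, 32.9 and 29.9 and then 18, 16.6 and 16 (change -0.87, SE 0.11, adjusted p = 0.0014), and with BTG2 made up the 2 called of 17 p53 targets (median -0.042). MMP9, a gelatinase, read 29.8, 33.7 and 31.1 untreated, 17.9, 15.8 and 14.2 at 1 ug/ml and 16.7, 17.4 and 14.8 at 10 ug/ml (change -0.91, SE 0.16, adjusted p = 0.0132). IFI6 and IRF7 were the 2 called of 30 interferon-stimulated genes (median -0.19), with changes of -0.46 (SE 0.073) and -0.80 (SE 0.13). Single calls were also made for PSAP, a lysosomal sphingolipid activator, at -0.42 (SE 0.087), for the small heat shock protein HSPB1 at -0.32 (SE 0.069) and for RRAS, a RAS-related GTPase, at -0.63 (SE 0.14). MMP9 was lost without untreated library B or C or library C at 10 ug/ml, or with a pseudocount of 0.1 or 0.5, and ALAS1, PSAP, HSPB1 and RRAS in 9 to 13 of 17 alternatives. The 23 S phase and 23 mitosis genes gave 0 calls in limma, with medians of -0.088 and -0.12 and with 2 and 4 lower and 0 higher at an unadjusted p under 0.05.

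The 17 genes that rose were fewer and mostly smaller in change. CBS, which makes cystathionine from homocysteine, read 2.20, 1.44 and 2.36 FPKM untreated, 1.51, 4.11 and 1.38 at 1 ug/ml and 9.47, 7.13 and 6.99 at 10 ug/ml (change 1.57, SE 0.32, adjusted p = 0.0312). GRCh38 holds a near-identical copy of CBS, so the value of the single locus is uncertain. ASNS, asparagine synthetase, read 15.1, 14.1 and 14 untreated, 11.6, 14.7 and 23.9 at 1 ug/ml and 29.9, 29.4 and 24.9 at 10 ug/ml (change 0.91, SE 0.20, adjusted p = 0.0487). Both genes were high in all 3 libraries at 10 ug/ml, and 1 library at 1 ug/ml lay above all untreated ones, B for CBS and C for ASNS. NKD2, an inhibitor of Wnt signalling, read 11.3, 9.31 and 10.8 untreated, 19.8, 17.7 and 15.7 at 1 ug/ml and 20.7, 17.6 and 20.1 at 10 ug/ml. Its rise of 0.84 (SE 0.10, adjusted p = 0.000719) was lost only in the 6-library fit. GIPC1, a PDZ adaptor of receptor trafficking, rose from 24.0 ± 3.51 to 40.7 ± 4.23 FPKM, and MLST8, a subunit of the mTOR complexes, from 54.5 ± 3.21 to 75.5 ± 1.64. GAS5 and SNHG29, noncoding host genes of small nucleolar RNAs, rose by 0.58 and 0.25 from means of 767 and 529 FPKM. DMAC1, an assembly factor of respiratory complex I, rose by 0.41 (SE 0.086), the histone demethylase KDM4A by 0.38 (SE 0.086) and the ubiquitin ligase RNF187 by 0.38 (SE 0.063). TMEM131L and the zinc-finger gene ZNF195 rose by 0.57 and 0.64.

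Of these, RNF187, MLST8, GIPC1 and NKD2 were lost in at most 5 of 17 alternatives, and CBS, ASNS, ZNF195, GAS5, TMEM131L, DMAC1, KDM4A and SNHG29 in 9 to 12, among them the removal of any one untreated library. The plot of single libraries shows ASNS and CBS beside genes that fell.

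**Figure D4:**
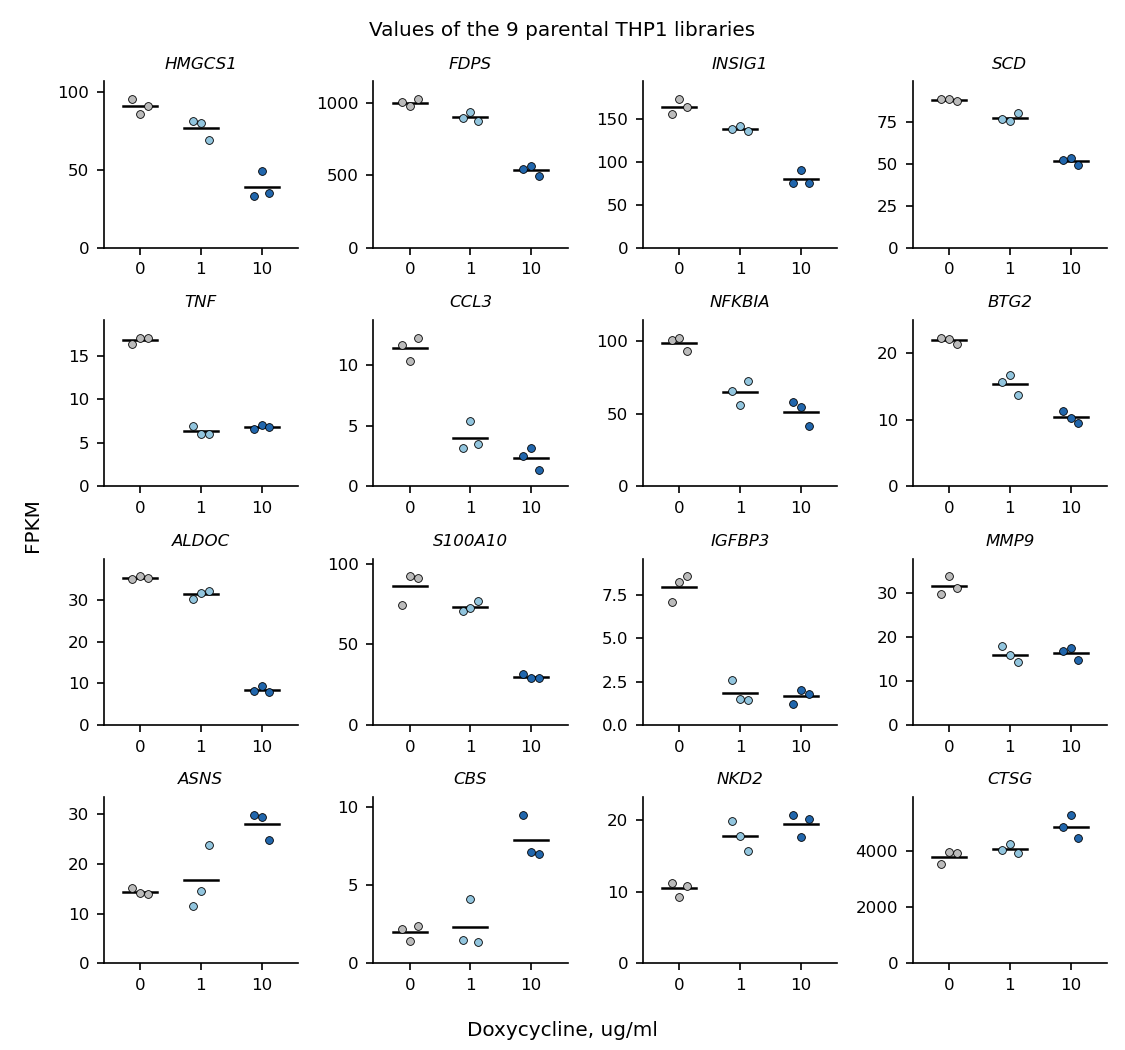
FPKM of 16 genes in the 9 parental THP1 libraries at 0, 1 and 10 ug/ml doxycycline, each point 1 library and each bar the mean of 3, on linear axes from 0. TNF, IGFBP3 and MMP9 have means at 1 ug/ml close to those at 10 ug/ml, whereas the means of ALDOC, S100A10 and HMGCS1 there are nearer to the untreated ones.

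ASNS and CBS belong to 14 tested genes of amino acid synthesis and one-carbon metabolism that ATF4 regulates. All 14 had a difference above 0 (median 0.52), 2 rose and 7 were higher at an unadjusted p under 0.05. PSAT1, the serine synthesis aminotransferase, read 60.9, 57.2 and 62.6 FPKM untreated and 139, 129.6 and 124 treated, and PHGDH, the first enzyme of that pathway, 127, 132 and 132 and 235, 234 and 199. Groups did not overlap in either gene, yet neither was called, at 1.11 (SE 0.45, adjusted p = 0.381) and 0.76 (SE 0.58, adjusted p = 0.715), where the SE pools the spread of all 18 libraries. In the fit of the 9 THP1 libraries, 5 genes of the list were called higher, namely PSAT1 (adjusted p = 0.000606, range over the alternatives 0.000606 to 0.561), PHGDH (adjusted p = 0.00485, range over the alternatives 0.00485 to 0.823), SHMT2 (adjusted p = 0.0216, range over the alternatives 0.0216 to 0.532), MTHFD2 (adjusted p = 0.0355, range over the alternatives 0.0355 to 0.433) and GPT2 (adjusted p = 0.0355, range over the alternatives 0.0355 to 0.353), while ASNS and CBS were not. Neither of these was called when any one library was left out. Of 9 tested amino acid transporters, 0 were called in limma, 4 were higher and 0 lower at an unadjusted p under 0.05, and all 9 differences were above 0 (median 0.43). SLC7A5, the large neutral amino acid transporter, read 40.2, 44.9 and 45.1 and 81.7, 78.8 and 72.3 FPKM (change 0.82, SE 0.37, adjusted p = 0.438), and was called with the 9 THP1 libraries (adjusted p = 0.00391, range over the alternatives 0.00391 to 0.63). The 20 cytosolic tRNA synthetases likewise gave 0 calls in limma, with 12 higher and 0 lower at an unadjusted p under 0.05 (median 0.26). PSAT1, PHGDH, SHMT2, MTHFD2, GPT2 and SLC7A5 were singled out after their values were seen, and PSAT1, PHGDH and SLC7A5 were also called with the 6 compared libraries alone.

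Among 16 regulators and effectors of the same stress response, 1 fell and none rose (median 0.13). That gene was DDIT4, an inhibitor of mTOR complex 1, at 23.0 ± 2.63 and 14 ± 2.16 FPKM (change -0.68, SE 0.15, adjusted p = 0.0433). Its call was lost in 10 of 17 alternatives, among them 5 of the 6 that left out a library, all but that without library A at 10 ug/ml. ATF4 itself read 282, 312 and 306 untreated and 383, 405 and 367 treated and was not called (adjusted p = 0.522), and SESN2, a stress-induced mTORC1 inhibitor, was at 0.56 (SE 0.13, adjusted p = 0.0588). With the 9 THP1 libraries alone 2 genes of the list were called higher and 0 lower, namely ATF4 (adjusted p = 0.0369, range over the alternatives 0.0369 to 0.703) and TRIB3, a pseudokinase (adjusted p = 0.0355, range over the alternatives 0.0355 to 0.402). The ATF4-type core TGATGNAA, searched on both strands, was found upstream of 2 of 9 genes of the synthesis list, of 0 of 8 transporters and of 870 of 27305 promoters (3.19%). The window of ASNS, chr7:97872409-97872658 on the minus strand, is shown because ASNS rose, with the match in capitals.
ASNS: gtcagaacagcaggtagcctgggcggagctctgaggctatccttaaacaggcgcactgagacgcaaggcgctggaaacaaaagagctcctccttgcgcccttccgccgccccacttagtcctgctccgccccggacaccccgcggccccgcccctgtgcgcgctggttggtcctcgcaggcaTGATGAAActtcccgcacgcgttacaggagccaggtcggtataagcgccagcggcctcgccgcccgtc

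No gene of the mitochondrial lists was called. Mitochondrial ribosomes are a known target of the drug, but these values are RNA levels, and protein synthesis in mitochondria was not measured. None of the 13 subunits encoded by mitochondrial DNA was called in limma, with a median of 0.15 and with 1 higher and 0 lower at an unadjusted p under 0.05. That gene was MT-ATP6, a subunit of ATP synthase named after its values were seen, at 2099, 2118 and 2095 FPKM untreated and 2888, 2642 and 2945 treated (change 0.42, SE 0.12, adjusted p = 0.156), called with the 9 THP1 libraries alone (adjusted p = 0.0128, range over the alternatives 0.0128 to 0.329). MT-CO2 was at 4476 ± 251 and 4982 ± 170.3 FPKM, and MT-ND4L at 5178 ± 98.8 and 5302 ± 684, neither called. The share of all FPKM held by mitochondrial genes was 3.44, 3.42 and 3.45% untreated and 3.72, 3.36 and 4.26% at 10 ug/ml. The groups overlapped, and a two-sided exact permutation test gave p = 0.4, where 3 libraries against 3 cannot go below 0.1. Nuclear genes of complex I (37, median -0.018) and of complexes II to V (38, median -0.012) had 0 calls in limma, with 0 and 2 lower and 0 higher at an unadjusted p under 0.05. For the mitochondrial ribosome itself, 0 of 48 large-subunit and 0 of 28 small-subunit genes were called in limma (medians 0.048 and 0.052), with 1 and 2 higher and 0 lower at an unadjusted p under 0.05. Among the most abundant members, NDUFA13 of complex I differed by -0.12 (SE 0.069), ATP5F1B of ATP synthase by 0.019 (SE 0.091), MRPL52 by 0.19 (SE 0.10) and MRPS24 by -0.015 (SE 0.086). Translation factors and mitochondrial tRNA synthetases (27 genes, 2 higher), mtDNA maintenance (17, 1 higher) and chaperones and proteases (19, 2 higher) had 0 called in limma, with 0 lower at an unadjusted p under 0.05.

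The plates at 1 ug/ml received a dose between those compared above. Against 0 ug/ml only 2 genes were called (0.0114%), IGFBP3 with a change of -1.68 (SE 0.20, adjusted p = 0.00805) and NKD2 with 0.71 (SE 0.10, adjusted p = 0.0386), both lost without untreated library B or C or 1 ug/ml library B. Between 10 and 1 ug/ml 52 genes were called (0.296%), 43 lower (0.245%) and 9 higher (0.0513%). This count was 17, 15 and 21 without library A, B or C at 1 ug/ml and 20, 16 and 13 without library A, B or C at 10 ug/ml. The comparisons share libraries, so their values are given side by side without a measure of likeness. Among the 162 genes that fell, the median difference was -0.18 from 0 to 1 ug/ml and -0.45 from 1 to 10, the mean at 1 ug/ml lay between the other means in 141, and 40 were also called between 10 and 1 ug/ml. Of the 17 that rose, 3 were called between 10 and 1 ug/ml. All these genes were chosen by their difference between 10 and 0 ug/ml. The numbers are thus a description and add no support for a graded response.

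Sterol genes differed mainly in the step from 1 to 10 ug/ml. The enzymes had a median of -0.14 from 0 to 1 ug/ml and of -0.62 from 1 to 10, and 8 of the 20 were called lower in that step. HMGCS1 read 81.3, 79.9 and 69.5 FPKM at 1 ug/ml, and its later step was -0.97 (SE 0.15, adjusted p = 0.0226). S100A10 read 70.5, 72.5 and 76.8 at 1 ug/ml and fell in the step to 10 ug/ml by 1.27 (SE 0.12, adjusted p = 0.000383). VIM, the intermediate filament vimentin, read 51.3, 53.3 and 58.2 at 0, 47.9, 44.8 and 45.6 at 1 and 23.3, 19.4 and 21.9 at 10 ug/ml, and its later step was also called (change -1.07, SE 0.13, adjusted p = 0.00425). The cytokine list had medians of -0.234 from 0 to 1 ug/ml and -0.245 from 1 to 10, whereas TNF, CXCL1 and MMP9 had nearly all of their difference at 1 ug/ml. At 1 against 0 ug/ml TNF differed by -1.28 (SE 0.21, adjusted p = 0.0768), CXCL1 by -1.79 (SE 0.32, adjusted p = 0.0966) and MMP9 by -0.94 (SE 0.16, adjusted p = 0.0821). The steps to 10 ug/ml were 0.094 (SE 0.21), 0.047 (SE 0.32) and 0.031 (SE 0.16). None of these 6 differences was called, so the order is a description of the means.

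B11 given the same dose gets both the drug and the induced NRAS G12V, and the difference between the responses was tested as an interaction in the fit of all 18 libraries. In B11 7520 genes were called between 10 and 0 ug/ml (42.8%), 3784 higher (21.6%) and 3736 lower (21.3%). The responses of the lines differed in 5230 genes (29.8%), higher in B11 in 2812 (16%) and lower in 2418 (13.8%). Of the 162 genes that fell in THP1, 62 were called higher in B11, 50 lower and 50 neither, and the interaction was called in 133. It was higher in B11 in 101 of these, and 22 of the 101 had an untreated B11 mean under 1 FPKM, which left little room for a fall. Of the 17 that rose, 9 were called higher in B11, 3 lower and 5 neither, and the interaction was called in 11. Since the genes were chosen by their THP1 change, which enters the interaction, these shares are a description.

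The interaction was called for all 20 cholesterol enzymes, with the higher response in B11, where 17 rose with a median of 1.15. INSIG1 went from 34.3 ± 2.64 to 142 ± 25.9 FPKM in B11, a change of 2.0 against -1.02 in THP1 (interaction 3.02, SE 0.15, adjusted p = 2.61e-09). TNF changed by 2.52 in B11 against -1.19 in THP1 (interaction 3.71, SE 0.30, adjusted p = 2.56e-07), and ALDOC by 2.08 against -1.94 (interaction 4.02, SE 0.57, adjusted p = 7.57e-05). In B11 ALDOC read 18.3, 19.2 and 20.1 FPKM untreated and 135.8, 148.9 and 29.2 at 10 ug/ml. Library C of B11 at 10 ug/ml thus lay far below A and B, and for TNF it read 4.42 where A and B read 9.61 and 9.73. Some genes fell in both lines by amounts whose difference was not called. BTG2 changed by -0.96 in B11 and -1.01 in THP1 (interaction 0.057, SE 0.13, adjusted p = 0.788), and NFKBIA by -0.97 and -0.94 (interaction -0.028, SE 0.19, adjusted p = 0.936). Among 26 tested monocyte receptors and surface markers the interaction was called lower in B11 for 13 and higher for 5. CSF1R and the complement gene CFP fell further in B11, CSF1R by 3.54 and CFP by 4.46, with interactions of -3.04 (SE 0.14) and -3.51 (SE 0.19). FCGR2B was among the 5, with a change of -0.13 in B11 (interaction 1.55, SE 0.25, adjusted p = 0.000302) from an untreated B11 level of 0.218 ± 0.165 FPKM. CBS rose in both, by 2.41 in B11 and 1.57 in THP1 (interaction 0.84, SE 0.45, adjusted p = 0.183), and ASNS rose more in B11, by 2.29 (interaction 1.37, SE 0.29, adjusted p = 0.00217). All 14 genes of the ATF4 synthesis list rose in B11, with a median of 2.10, and the interaction was called higher for 10 of them. In the plot of both lines, genes that fell in THP1 are spread above and below 0 in B11.

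**Figure D5:**
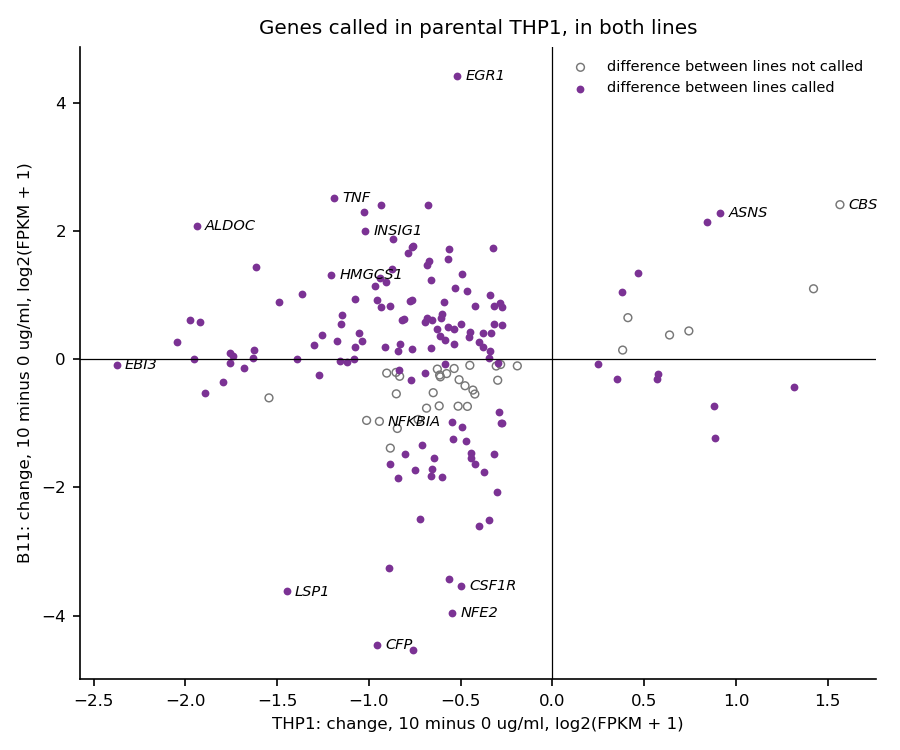
Change from 0 to 10 ug/ml (difference of log2(FPKM + 1)) in parental THP1 and in B11 for the genes called in THP1, filled where the difference between the lines was called. A processed pseudogene with a change of -6.12 in THP1 lies outside the axis, and 62 of the 162 genes that fell in THP1 were called higher in B11.

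Strand was not stated for these libraries, and 40 of the 81 named and called genes, FDPS, HMGCS1, SREBF2, FADS2, ALDOC and CDKN1A among them, are overlapped by an annotated gene on the other strand, whose reads cannot be told apart.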

How the data were processed

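RNA-seq libraries of parental THP1 and clone B11 at 0, 1 and 10 ug/ml doxycycline (3 each, 18 in all) were grouped by their titles. The deposited table gives 1 FPKM value per gene and library, made by the authors with HISAT2 and Cuffnorm on GRCh38, per the submitters' processing notes. Versions, annotation and strand setting: not given in the sources used here. That the values are FPKM was inferred from the tool and from library sums between 1.01 and 1.2 M. Depth was estimated from the step that 1 fragment adds to a gene. Gene names came from GENCODE 29.

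Genes reaching 1 FPKM in 3 or more libraries were tested on log2(FPKM + 1) with limma 3.58.1 in R 4.3.3, with 6 group means, an intensity trend and 12 residual degrees of freedom. P-values were adjusted by Benjamini-Hochberg over all 17555 genes of each comparison, and the test was tried on simulated data. Named genes were NRAS, up to 15 rising and 15 falling genes with the largest changes among those called, with at least 5 FPKM in the higher group and no overlap between groups (clone names, small RNAs and numbered pseudogenes left out), and up to 6 called members of each list, or the 2 most abundant where none was called. The other genes given were chosen after their values were seen. Genes withheld from the text are counted in their lists but not reported here. The members and gene lists were chosen with earlier results of these data known. Alternatives changed the pseudocount, filter, scaling, variance trend, libraries in the fit or replicate block, or left out each library. An alternative restricted to protein-coding genes with 300 or more exonic bases was chosen after seeing the data. Promoters are the 250 bases before the start in RefSeq (GRCh38.p14), first entry per symbol.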

Additional observations from a re-analysis of the deposited data

Results flagged for a closer look

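The response to 10 ug/ml differed between B11 and THP1 in 65 of the 80 called genes that were named and are reported here, by the interaction in limma at an adjusted p under 0.05. Over all genes tested 29.8% differed, and the genes were chosen by their THP1 response, so the share is a description. The values are the B11 change minus the THP1 change on the log2(FPKM + 1) scale, above 0 where the B11 response was higher, which was so in 50 genes. In 10 of these 50 the untreated B11 libraries had a mean under 1 FPKM, which left little room for a fall there, namely TBC1D30, FCGR2C, HSPA7, IGFBP3, FCGR2B, CCL4L2, TNF, CXCL1, CCL4 and MMP9. For these genes other than TNF, which rose in B11, no change was called in B11 and the difference mostly restates the fall in THP1.

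For the sterol and lipid genes the difference was ACAT2 2.75, HMGCS1 2.52, MVD 1.83, FDPS 2.10, SQLE 2.20, CYP51A1 2.44, INSIG1 3.02, SREBF2 0.78, STARD4 1.90, SCD 2.51 and FADS2 3.33. For the cytokine and NF-kB genes the difference was TNFAIP3 1.74, RELB 0.66, NFKB2 1.27, EBI3 2.29, TNF 3.71, CCL3 2.49, CCL4 1.03, CCL4L2 1.76 and CXCL1 1.79. For the immediate early genes the difference was JUNB 0.87, JUND 1.33, KLF2 2.38 and KLF4 -1.02. For the glycolysis and hypoxia genes the difference was ALDOC 4.02, ALDOA 1.04, PFKFB4 1.45, PGK1 1.14, GAPDH 1.16, SLC16A3 0.67, NDRG1 1.63 and P4HA1 2.52. For the monocyte, granule and transcription factor genes the difference was FCGR2B 1.55, FCGR2C 1.36, CSF1R -3.04, CD68 -1.02, LILRB4 -0.73, CFP -3.51, CFD -2.21, RNASE2 -1.09, CTSG -0.66 and NFE2 -3.41. Among the remaining genes the B11 response was higher in ASNS 1.37, NKD2 1.29, MLST8 0.89, RNF187 0.67, TBC1D30 2.31, SLC6A8 2.59, HSPA7 1.44, IGFBP3 1.70, TMEM45A 1.65, LINC03040 3.05, S100A10 2.38, DDIT4 3.09, FTH1 0.44, ALAS1 1.25, CDKN1A 2.29, MMP9 1.1 and HSPB1 2.05. It was lower in GAS5 -0.81, TMEM131L -0.88, SNHG29 -0.33, LSP1 -2.17, PSAP -1.22 and IRF7 -0.67.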

How the results depend on the processing

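Of the 81 named and called genes, 16 kept their call in all alternatives run, 65 lost it in at least 1, and none changed sign. The 179 calls between 10 and 0 ug/ml became 119 with the 9 THP1 libraries alone, 46 with only the 6 compared, and 69 to 119 with 1 library left out. The 162 lower calls became 99, 41, and 62 to 101 in the same fits. The 17 higher calls became 5 with the 6 libraries and 7 to 19 with 1 library left out. With the 9 THP1 libraries, where 99 of the 119 calls were lower, the higher calls exceeded 17. Against 0 ug/ml, the 2 calls at 1 ug/ml became 0 with a pseudocount of 0.5, 23 without the filter, 7 without the trend, 1 each with a mean of at least 5 FPKM, median-of-ratios scaling, TPM or the 9 THP1 libraries, and 0 to 4 with 1 library left out. The 52 calls between 10 and 1 ug/ml became 31 and 32 with pseudocounts of 0.1 and 0.5, 34 without the filter, 28 without the trend, 11 with 6 libraries, and 13 to 21 with 1 library left out. Fewer libraries leave fewer residual degrees of freedom and also change the pooled spread, and the cause of these shifts was not tested.

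A replicate block for the letters A to C gave 88 calls between 10 and 0 ug/ml (83 lower, 5 higher), 0 between 1 and 0 and 13 between 10 and 1. The letters were not shown to pair the plates, since same-letter libraries at 0 and 10 ug/ml had correlations of -0.056, 0.048 and -0.038 in their deviations from the group means. At 11.1 to 15.5 M fragments, genes of a few FPKM such as CCL4 rest on few fragments.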

Other observations

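Called genes outside the lists, chosen after their values were seen, included the cytoskeleton. ACTB, cytoplasmic beta-actin, read 9893, 9698 and 9870 FPKM untreated and 8278, 7947 and 8144 at 10 ug/ml, a small change of -0.27 (SE 0.058, adjusted p = 0.0377). TUBA1A, an alpha-tubulin, fell from 65.6 ± 5.52 to 30.6 ± 2.09 FPKM, by 1.07 (SE 0.13, adjusted p = 0.000719). LMNA, the gene of nuclear lamins A and C, fell by 0.38, TMSB10, an actin-binding thymosin, by 0.34, and ARPC1B, a subunit of the Arp2/3 complex, by 0.19. Besides S100A10, the calcium-binding proteins S100A4 and S100A6 fell by 0.32 and 0.28, and the galectin LGALS1 by 0.34.

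Surface and signalling genes of leukocytes were also among the called ones. CD52, a small glycoprotein, read 89.9, 118 and 104 FPKM untreated and 65.7, 60.5 and 55.2 treated (-0.77, SE 0.11, adjusted p = 0.00339). CD70, a TNF-family ligand, fell from 152 ± 6.83 to 99.3 ± 1.76 FPKM, the chemokine receptor CXCR4 from 58.7 ± 2.65 to 39.6 ± 5.70, and the TNF receptor TNFRSF1B from 36.3 ± 4.47 to 24.5 ± 1.41. TSC22D3, known as a glucocorticoid-induced leucine zipper gene, fell by 0.96 (SE 0.17), and the homeobox gene HLX by 0.62 (SE 0.076). In lipid and glycogen metabolism, the lipid droplet protein PLIN2 fell by 0.63, the nuclear receptor PPARD by 0.61, and the glycogen branching enzyme GBE1 by 0.77. Means are given ± SD (n = 3).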
